A study of Mus musculus with 12 samples.

Results

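Imprinted genes are expressed from the copy of 1 parent only, and many of them act on the growth of the embryo. A set of 10 such genes, Igf2, H19, Dlk1, Meg3, Peg3, Peg10, Grb10, Cdkn1c, Plagl1 and Mest, was followed across 12 arrays of pregnant mouse cervix. A probe set was taken where the array's annotation gave it 1 symbol and that symbol was 1 of the 10. This found 29 probe sets of 9 genes, of 18194 genes with such a probe set. H19 had none of its own: the probe set 1448194_a_at is listed with both H19 and Mir675, the microRNA gene inside H19, so it is given by its ID and stands outside the counts of genes. Where a gene had several probe sets, the one brightest on average stood for it.

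The mice were of the CD1 strain, which is outbred, and at gestation day 15. The MPA group was injected under the skin with 1 mg per dam of medroxyprogesterone acetate (MPA), a synthetic progestin, for 48 h, and the vehicle group with ethanol in equal volume. Each group had 6 arrays (Affymetrix, total RNA amplified and labelled with biotin), named here MPA 1 to 6 and vehicle 1 to 6. Nothing in the labels tells whether the arrays are from separate dams. The p-values thus reflect the variation among these samples, part of which may be technical. Values are log2 of the deposited intensities, differences are MPA minus vehicle, and errors of a mean are the SD over 6 arrays.

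As background, the 10 genes are often described as 1 network: they are high together in the embryo and most decline after birth. Igf2 is a growth factor of the fetus, Grb10 and Cdkn1c restrain growth, and Plagl1 is a zinc finger transcription factor that can raise Igf2, H19 and other members in mouse cells. The genes lie in several clusters. Igf2, H19 and Cdkn1c share a region of chromosome 7, and Dlk1 and Meg3 one of chromosome 12.

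Between 8583 and 8960 genes per array had a log2 value above 4, the minimum used below, and no pair of arrays held identical values. Tissue identity was checked on 10 genes of cervix and uterus, of which 2 never passed the minimum. Their summed intensity was 3018 to 4090 in MPA arrays and 3138 to 4041 in vehicle arrays. Pgr, the progesterone receptor, was the brightest. A sum gives most weight to bright genes. The mean log2 value of the 7 genes tested below, each centred on its own mean, was less even. It was -0.96 in MPA 2, -0.63 in vehicle 4 and -0.39 to 0.59 in the other arrays. For each array, genes were counted whose log2 value exceeded that of all other arrays by more than 1. There were 120 in vehicle 1 (0.66% of 18194) and 3 to 33 in the other arrays. Vehicle 1 thus stood apart, as was seen from the values and not from a label, and results that rest on it are given with and without it. The RNA quality measure (the mean log2 difference between 3' and 5' control probe sets of Actb and Gapdh) was 2.27 to 3.43 in MPA arrays, 2.82 in vehicle 1 and 2.37 to 2.46 in the other vehicle arrays.

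**Figure D1:**
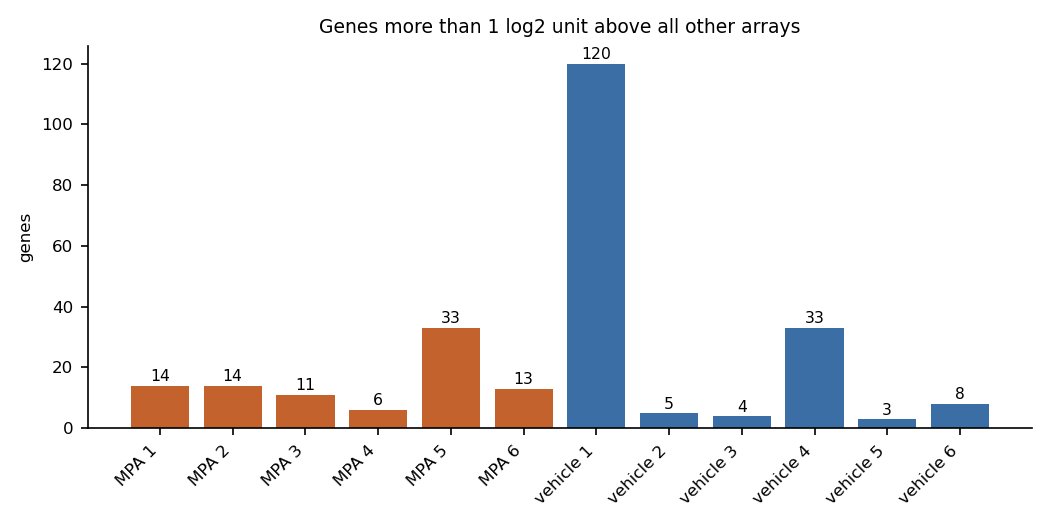
Number of genes (y axis) whose log2 intensity exceeded that of all other arrays by more than 1, for each of the 12 arrays (x axis), with MPA arrays in orange and vehicle arrays in blue. Vehicle 1 had 120 such genes and the other arrays 3 to 33.

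Of the 9 genes, 4 were among the 120 that set vehicle 1 apart: Igf2, Peg3, Meg3 and Mest. Igf2 was 3.15 above the next highest array on the log2 scale, Peg3 2.28, Meg3 1.88 and Mest 1.66. Cdkn1c exceeded the next array by 0.88, Dlk1 by 0.13, Plagl1 by 0.08 and Grb10 by 0.01, and Peg10 was not highest there. Of the 6 genes that entered the test below, 5 were highest in vehicle 1, against 9.03% of all genes tested. Vehicle 1 and vehicle 2 were the highest 2 arrays for 7 of the 9 genes, and for 5 of those 6, where the same held for 1.07% of all genes tested. These genes were chosen with earlier results of these data known, so the shares are given as a description. In level the genes were not alike: some members were near the floor of the table in all but a few arrays, and others were bright in all 12.

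**Figure D2:**
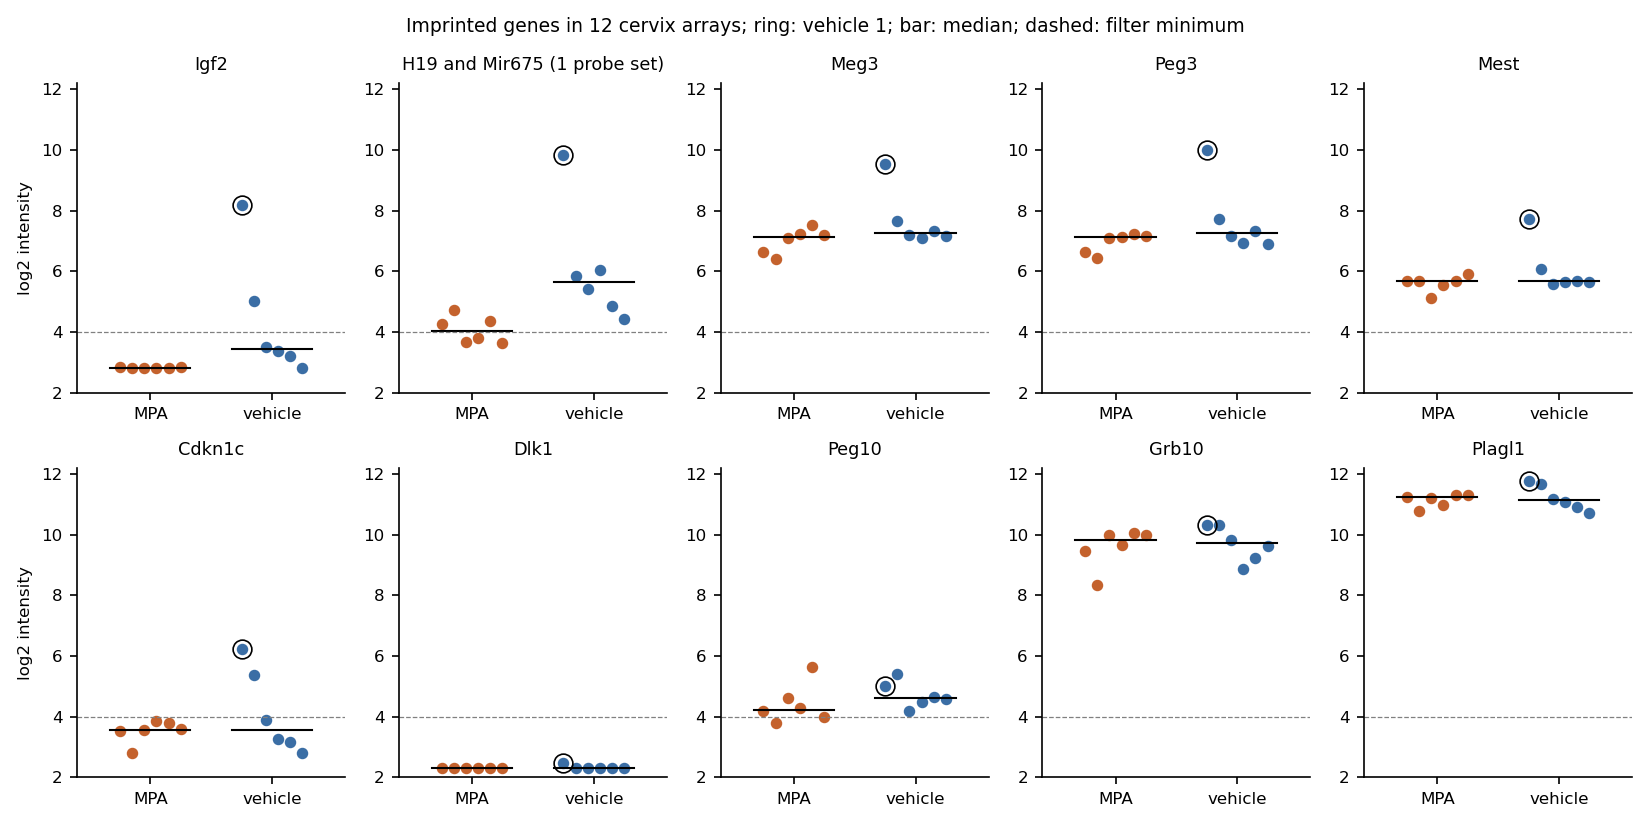
Log2 intensity (y axis) of the 9 genes and of the probe set listed with H19 and Mir675, in 6 MPA arrays (orange, left) and 6 vehicle arrays (blue, right) of each panel, in order of array number. Bars are medians, the dashed line is the filter minimum of 4, and the ring marks vehicle 1, which is the highest array in 8 of the 9 genes and in the shared probe set.

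Igf2, the fetal growth factor, was at the floor of the table in all MPA arrays, with 2.81 at the lowest, 2.82 at the median and 2.83 at the highest. The vehicle arrays had 8.17, 5.03, 3.49, 3.38, 3.20 and 2.81, from vehicle 1 to vehicle 6. Only vehicle 1 and vehicle 2 passed 4, while 5 of 6 vehicle arrays were above all MPA arrays and vehicle 6 was not. Igf2 failed the filter and so entered no test across genes. Its mean was 2.82 ± 0.01 in the MPA group and 4.35 ± 2.02 in the vehicle group, a difference of -1.53, with p = 0.0152 in an exact two-sided permutation test of 6 against 6 arrays (924 splits, smallest possible p 0.00216). Without vehicle 1 the difference was -0.76, with p = 0.0152 in the exact permutation test. These p-values were not adjusted for the number of genes, and values at the floor have no order among themselves. The other Igf2 probe set, 1448152_at, was at 2.48 to 2.86 in MPA arrays, against 7.28 in vehicle 1, 3.98 in vehicle 2 and 2.58 to 2.80 in the other 4 vehicle arrays. In bulk tissue, fewer cells of a type and less RNA per cell cannot be told apart, here or below.

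H19 is a long noncoding RNA expressed from the maternal copy beside Igf2, and it is the precursor of miR-675. Both mature forms are shown because the probe set cannot tell H19 from Mir675. They are from RefSeq (GRCm38.p6), with the seed, bases 2 to 8, in capitals:
mmu-miR-675-5p, chr7:142577112-142577133, minus strand: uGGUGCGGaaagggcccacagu
mmu-miR-675-3p, chr7:142577078-142577099, minus strand: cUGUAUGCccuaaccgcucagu
Probe set 1448194_a_at had 3.63 at the lowest, 4.03 at the median and 4.72 at the highest in MPA arrays. Vehicle arrays had 9.82, 5.85, 5.42, 6.03, 4.85 and 4.44, from vehicle 1 to vehicle 6. The groups overlapped in vehicle 6 alone, which lay below MPA 2. The mean was 4.08 ± 0.44 in the MPA group and 6.07 ± 1.93 in the vehicle group, a difference of -1.99 (limma, SE 0.73, adjusted p = 1.00 over 17078 probe sets). The exact permutation test of this probe set alone gave p = 0.00433. Without vehicle 1 the difference was -1.24 (SE 0.30, adjusted p = 0.870 by limma), with an exact permutation p of 0.00866. The difference did not pass in the fit over all probe sets.

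Dlk1 codes for a membrane protein of the Notch ligand type that is secreted in part and marks fetal and precursor cells. It was not above the minimum on any array: 2.31 to 2.33 in MPA arrays, 2.46 in vehicle 1 and 2.31 to 2.32 in the other vehicle arrays. Its second probe set also lay between 2.30 and 2.32 throughout. No level can be set from such values.

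Meg3, a noncoding RNA of the maternal copy in the same cluster as Dlk1, was well above the minimum in all 12 arrays. The MPA arrays had 6.41 at the lowest, 7.14 at the median and 7.52 at the highest. The vehicle arrays had 7.08 at the lowest, 7.25 at the median and 9.54 at the highest, the last in vehicle 1. MPA 1 and MPA 2 were below all vehicle arrays, and MPA 3 to MPA 6 overlapped with them. The mean was 7.01 ± 0.41 in the MPA group and 7.65 ± 0.94 in the vehicle group, a difference of -0.64 (limma, SE 0.38, adjusted p = 1.00). Without vehicle 1 it was -0.27 (SE 0.19). The Meg3 value comes from a probe set of the _x_at kind, whose probes may share sequence with other transcripts. Of the other Meg3 probe sets, 1452183_a_at had -0.65, and -0.14 without vehicle 1. Probe set 1428764_at had -1.26, and -0.66 without vehicle 1. Probe set 1452905_at had -0.31, and 0.14 without vehicle 1. These 3 and the one used were highest in vehicle 1.

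Peg3, a zinc finger protein of the paternal copy that acts on maternal care and fetal growth in mice, had almost the same pattern. The MPA arrays had 6.43 at the lowest, 7.11 at the median and 7.24 at the highest. The vehicle arrays had 6.91 at the lowest, 7.25 at the median and 9.997 at the highest, again in vehicle 1, which was 7.24-fold above the median of the other arrays. The mean was 6.95 ± 0.34 in the MPA group and 7.67 ± 1.18 in the vehicle group, a difference of -0.73 (limma, SE 0.45, adjusted p = 1.00), and -0.26 (SE 0.19) without vehicle 1. A second probe set, 1417356_at, had 4.93 to 5.47 in MPA arrays, against 8.46 in vehicle 1 and 4.93 to 6.40 in the other vehicle arrays.

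Mest, of the paternal copy, codes for a protein of the hydrolase fold family that is abundant in embryonic mesoderm. It had 5.12 at the lowest, 5.67 at the median and 5.89 at the highest in MPA arrays, and 5.57, 5.67 and 7.72 in vehicle arrays. Apart from vehicle 1, the vehicle arrays spanned 5.57 to 6.06 and held 4 of the 6 MPA arrays, with MPA 3 and MPA 4 below it. The difference was -0.46 (limma, SE 0.33, adjusted p = 1.00), and -0.12 (SE 0.14) without vehicle 1. Peg10, a gene of retrotransposon origin needed for the mouse placenta, was close to the minimum, with 3.78, 4.23 and 5.63 in MPA arrays (lowest, median, highest) and 4.19, 4.62 and 5.41 in vehicle arrays. Its highest value was in MPA 5 and not in vehicle 1. The difference of Peg10 was -0.31 (limma, SE 0.29, adjusted p = 1.00), and -0.25 (SE 0.32) without vehicle 1.

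Cdkn1c codes for the cell cycle inhibitor p57 and is expressed from the maternal copy. It failed the filter, with 2.79 at the lowest, 3.57 at the median and 3.87 at the highest in MPA arrays. Vehicle arrays had 6.24, 5.36, 3.88, 3.26, 3.18 and 2.79, from vehicle 1 to vehicle 6, so that only vehicle 1 and vehicle 2 passed 4. Its difference in means was -0.60 (exact permutation p = 0.377), and -0.17 (exact permutation p = 0.768) without vehicle 1.

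Grb10, an adaptor that binds and restrains the insulin and insulin-like growth factor receptors, was among the bright members. The MPA arrays had 8.32, 9.82 and 10.05 (lowest, median, highest) and the vehicle arrays 8.86, 9.72 and 10.31. The groups overlapped nearly whole, with MPA 2 the lowest of all arrays. The difference was -0.11 (limma, SE 0.33, 95% interval -0.82 to 0.60, adjusted p = 1.00), and 0.01 (SE 0.34) without vehicle 1. Its other probe sets, 1430164_a_at and 1425457_a_at, were below the minimum on all arrays and differed by -0.17 and 0.19.

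Plagl1 was above 10 in all arrays, with 10.79, 11.23 and 11.32 in MPA arrays and 10.72, 11.12 and 11.75 in vehicle arrays. Vehicle 1 and vehicle 2 were above all MPA arrays, and the other 4 vehicle arrays lay within or below their range. The difference was -0.08 (limma, SE 0.18, 95% interval -0.47 to 0.32, adjusted p = 1.00), and 0.03 (SE 0.17) without vehicle 1. This value too comes from a probe set of the _x_at kind. Of its other probe sets, 1450533_a_at differed by 0.07 and 1438588_at by -0.39, the second with its highest value, 7.72, in vehicle 1.

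**Figure D3:**
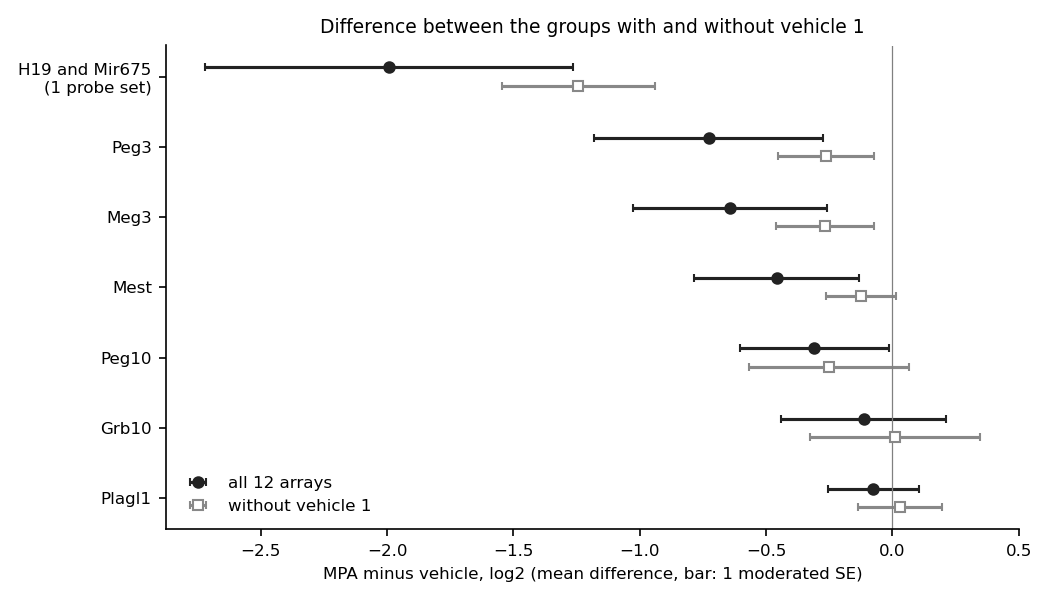
Difference between the means (x axis, MPA minus vehicle, log2) for the 6 genes tested and the probe set listed with H19 and Mir675, over all 12 arrays (black circles) and without vehicle 1 (open squares). Bars are 1 moderated SE. Peg3 had -0.73 over all arrays and -0.26 without vehicle 1, while Grb10 and Plagl1 lay close to 0 both ways.

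Across genes, limma was fitted to the 8795 that passed the filter (log2 over 4 in 6 or more arrays), and 6 of the 9 genes were among them. It called 1 gene (0.0114% of those tested) at an adjusted p under 0.05, Wfdc15b, and 0 of the 6. At an unadjusted p under 0.05 it called 440 genes (5.0%) and again 0 of the 6, with 158 genes (1.8%) lower in MPA; the smallest p among the 6 was 0.119, for Meg3. All 6 had a difference under 0, as did 43.7% of all genes tested. Without vehicle 1, Grb10 and Plagl1 had a difference above 0, and 4 of the 6 lay under 0, against 42.1% of all genes. The median difference of all genes tested was 0.02. Of the 29 probe sets, 18 passed 4 on some array, and 16 of these 18 were highest in vehicle 1. The mean was lower in MPA for 17 of the 18, and for 14 without vehicle 1. Some, such as 1448152_at of Igf2 and 1417355_at of Peg3, passed the minimum in vehicle 1 alone. The cut itself thus favours probe sets that are high in vehicle 1 and so lower in MPA. The same shares over all probe sets were not computed, and neither count is set against chance. The probe sets of a gene share its RNA and are not separate evidence.

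The fluidics station, a record of the instrument that stained the arrays, was not balanced. Station 1 held vehicle 1 to 4, station 4 held MPA 3 to 6, and station 2 held MPA 1, MPA 2, vehicle 5 and vehicle 6. Within station 2, which also sets the value of a fit with station as a block, the difference was -0.71 for Meg3, -0.60 for Peg3, -0.64 for Peg10, -0.54 for Grb10, 0.20 for Plagl1 and 0.01 for Mest. Igf2 there had 2.83 and 2.81 in MPA arrays and 3.20 and 2.81 in vehicle arrays, and 1448194_a_at had 4.25 and 4.72 in MPA arrays and 4.85 and 4.44 in vehicle arrays. The other stations each held 1 group, so station and group cannot be told apart there.

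Some markers of fetal and embryonic cell types were high in vehicle 1 together with these genes, and others were not. The list of embryonic red cells had 5 genes with a probe set, with a summed intensity of 27.7 to 60.4 in MPA arrays and 37.3 to 965 in vehicle arrays, and up to 140 without vehicle 1. Of these 5, 4 never passed the minimum, and Hbb-y, the embryonic beta globin, carried the sum. Its value, like that of Ttr below, comes from a probe set of the _x_at kind, whose probes may share sequence with other transcripts. Hbb-y had 2.89, 3.80 and 5.33 in MPA arrays (lowest, median, highest) and 4.11, 6.26 and 9.88 in vehicle arrays. Its difference was -2.71 (limma, SE 0.76, adjusted p = 0.863), and -2.05 without vehicle 1 (adjusted p = 0.718). Myh3, the embryonic myosin heavy chain of skeletal muscle, differed by -2.42 (SE 0.76, adjusted p = 0.863), and by -1.67 without vehicle 1 (adjusted p = 0.679). Of 22 skeletal muscle genes with a probe set, 10 never passed the minimum. Of the 11 tested, 8 were lower and 3 higher in MPA, and the brightest, Actc1, differed by 0.05 (SE 0.43). Afp, the alpha-fetoprotein of fetal liver and yolk sac, had 3.61, 5.58 and 6.36 in MPA arrays and 6.02, 6.61 and 7.43 in vehicle arrays, with its highest value in vehicle 4. Its difference was -1.30 (SE 0.44, adjusted p = 0.897), and -1.21 without vehicle 1 (adjusted p = 0.949). None of Hbb-y, Myh3 and Afp passed. Of 13 genes of fetal liver and yolk sac with a probe set, 10 never passed the minimum. Their summed intensity was 156 to 260 in MPA arrays, 673 in vehicle 1 and 198 to 301 in the other vehicle arrays. Ttr, of this list, failed the filter, with 2.36, 2.67 and 4.10 in MPA arrays and 3.56, 4.15 and 8.76 in vehicle arrays. Its highest value was in vehicle 1. For Rbp4, the brightest gene of the list, vehicle 1 ranked 11 of the 12 arrays. The part of these cell types in the levels of the imprinted genes was not tested.

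By list, the genes that set vehicle 1 apart included 4 of 22 skeletal muscle genes, 4 of 12 cartilage genes, 2 of 8 nerve genes, 1 of 13 genes of fetal liver and yolk sac and 1 of 5 of embryonic red cells. Most of the 120 genes were on no list, Dcx and Gria2 among them, so counts by list do not describe the 120 as a whole. Chosen after their values were seen, Col2a1, the main collagen of cartilage, had 2.36 to 2.56 in MPA arrays, 6.67 in vehicle 1 and 2.36 to 2.74 in the other vehicle arrays. Tubb3, a tubulin of neurons, had 2.83 to 4.46 in MPA arrays, 7.82 in vehicle 1 and 3.23 to 5.14 in the other vehicle arrays. The bone matrix genes Dmp1 and Ibsp exceeded all other arrays by 4.67 and 4.33 in vehicle 1, and Cryga, a crystallin of the lens, by 2.33. The Dmp1 value too comes from a probe set of the _x_at kind. The summed intensity of the skeletal muscle genes was 681 to 1677 in MPA arrays, 3709 in vehicle 1 and 823 to 1540 in the other vehicle arrays. That of the cartilage genes was 534 to 1622 in MPA arrays, 1566 in vehicle 1 and 723 to 1427 in the other vehicle arrays; its bright genes, Chad and Sox9, were not highest in vehicle 1.

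Placental markers were near the floor. Of 19 genes of trophoblast and placenta with a probe set, 18 never passed the minimum, Psg23 being the other one, and the list's sum was 114 to 121 in MPA arrays and 114 to 120 in vehicle arrays, with 115 in vehicle 1. None of the 8 decidua genes set vehicle 1 apart, and 5 never passed the minimum. Their summed intensity was 138 to 166 in MPA arrays, 340 in vehicle 1 and 135 to 433 in the other vehicle arrays. Alpl, of this list, had 3.52 to 4.41 in MPA arrays, 7.30 in vehicle 1 and 6.91 in vehicle 2. It was highest in vehicle 5, while vehicle 3, vehicle 4 and vehicle 6 lay within the MPA range. Its difference was -1.61 (limma, SE 0.67, adjusted p = 0.991), and -1.31 without vehicle 1. The lists of fibroblasts, smooth muscle, stratified and simple epithelium, endothelium, leukocytes and macrophages, adipocytes, proliferating cells, and cervix and uterus had 0 genes that set vehicle 1 apart. Their brightest genes were Col1a2, Acta2, Krt5, Epcam, Tek, Lyz2, Fabp4, Mcm6 and Pgr, in that order.

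**Figure D4:**
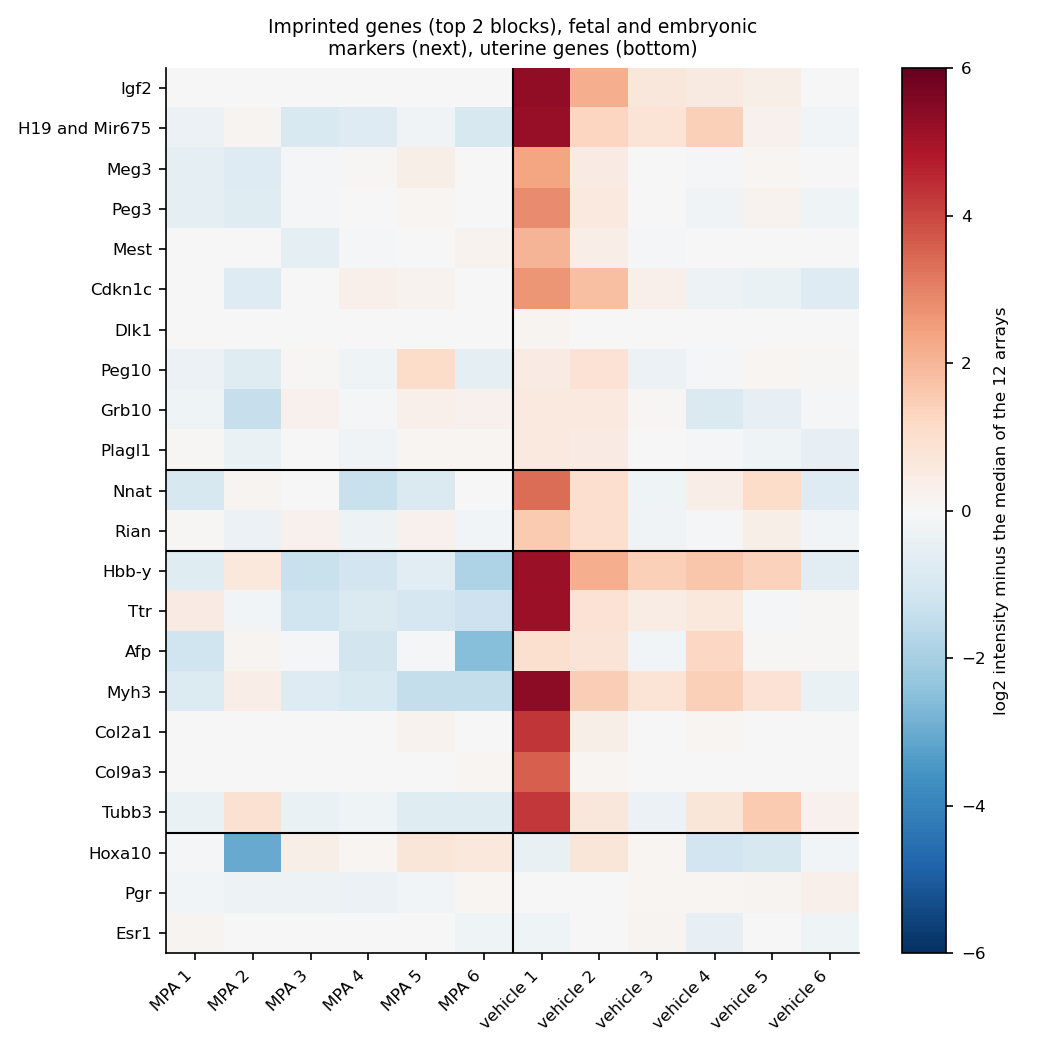
Log2 intensity minus the median of the 12 arrays (colour) for the imprinted genes (upper 2 blocks), markers of fetal and embryonic cell types (next block) and 3 genes of the uterus (bottom block), with MPA arrays left and vehicle arrays right. The strongest colours of the map are those of Igf2, the probe set listed with H19 and Mir675, Hbb-y, Ttr and Myh3 in vehicle 1, where Grb10, Plagl1, Pgr and Esr1 are pale.

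Of 49 other imprinted genes listed, 43 had a probe set and 21 entered the test. None was called by limma, 10 were higher and 11 lower in MPA, and their median difference was -0.03, against 0.02 over all genes tested. The 2 with the smallest p were Blcap and Dlx5. Blcap, which shares a locus with Nnat, differed by -0.36 (limma, SE 0.11, adjusted p = 0.863). Dlx5, a homeobox gene, differed by -0.27 (SE 0.11, adjusted p = 0.989). Igf2r, the receptor of the maternal copy that clears IGF2, differed by -0.13 (SE 0.09) and spanned 8.27 to 8.53 in MPA arrays and 8.32 to 8.77 in vehicle arrays. Dcn, a proteoglycan of connective tissue that is imprinted in the mouse placenta, differed by 0.27 (SE 0.55).

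Only Nnat of the other imprinted genes exceeded all other arrays by more than 1 in vehicle 1. Nnat, of the paternal copy and abundant in the developing nervous system, had 3.25, 4.12 and 4.74 in MPA arrays and 3.79, 5.28 and 7.94 in vehicle arrays. Its difference was -1.30 (limma, SE 0.59), and -0.79 without vehicle 1. Rian, a noncoding RNA of the Meg3 cluster, had 7.02, 7.30 and 7.62 in MPA arrays and 7.12, 7.49 and 8.93 in vehicle arrays, with vehicle 1 and vehicle 2 the highest. Both were named after their values were seen.

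The insulin-like growth factor axis holds the receptors, binding proteins and proteases through which IGF2 acts. Of 24 genes listed, 22 had a probe set and 13 entered the test; none was called by limma, 10 were higher and 3 lower in MPA, and the median difference was 0.04, and -0.25 within station 2. Insr, the insulin receptor, differed by 0.20 (SE 0.13) and Stc2, a secreted inhibitor of the pappalysin proteases, by 0.34 (SE 0.28), the 2 smallest p. Igf1r, the receptor of IGF1 and IGF2, differed by 0.04 (SE 0.11). None of the 22 set vehicle 1 apart.

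Across the 12 arrays, the 6 tested genes gave 15 pairs. A pair was called where both Pearson's r and Spearman's rho had an adjusted p under 0.05 (permutation test, 100000 draws, adjusted over the 15 pairs), and 2 were. Meg3 and Peg3 varied together, with r = 0.989 and rho = 0.951 (adjusted p = 0.00015 by permutation for each, the smallest the draws allow). Without MPA 2 and vehicle 1, the arrays farthest from the median of Meg3, r was 0.922. Without vehicle 1 alone, r was 0.951. These values rest on 1 probe set of each gene, and their other probe sets were not paired. The Meg3 probe set 1428764_at had its highest MPA value, 5.52, in MPA 2, where Peg3 had its lowest, 6.43. The genes are on different chromosomes. The first promoter listed for each is shown because the genes varied together, as 300 bases around the start of transcription, most of them before it (RefSeq, GRCm38.p6), with CG dinucleotides, the bases that imprinting marks by methylation, in capitals:
Meg3 promoter, chr12:109540746-109541045, plus strand: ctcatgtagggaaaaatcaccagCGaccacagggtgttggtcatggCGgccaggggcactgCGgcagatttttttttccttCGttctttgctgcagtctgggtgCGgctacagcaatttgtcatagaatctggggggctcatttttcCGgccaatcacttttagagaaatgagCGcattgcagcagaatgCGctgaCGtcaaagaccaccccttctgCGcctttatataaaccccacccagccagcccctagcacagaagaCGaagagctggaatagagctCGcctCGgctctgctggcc
Peg3 promoter, chr7:6730370-6730669, minus strand: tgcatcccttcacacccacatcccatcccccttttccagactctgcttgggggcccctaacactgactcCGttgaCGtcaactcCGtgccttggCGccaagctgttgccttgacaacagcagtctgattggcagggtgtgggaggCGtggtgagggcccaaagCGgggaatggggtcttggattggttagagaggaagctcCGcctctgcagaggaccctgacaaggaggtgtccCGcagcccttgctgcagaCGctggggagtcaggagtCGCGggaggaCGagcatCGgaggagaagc
Each holds 13 CG dinucleotides, a count reached by 37.9% of 32851 promoters in the table, whose median was 7. The letters GGGGCCCC, read the same on both strands and searched as the core of the Plagl1 motif, stood once in the Peg3 promoter and in none of the other 13 promoters of 7 of the 10 genes that were searched; those of H19, Peg10 and Cdkn1c were not analysed here. The letters stood in 1.08% of all promoters. Methylation and factor binding were not measured, and a match is only a match of letters.

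The second pair was Grb10 and Plagl1, with r = 0.734 (adjusted p = 0.0228) and rho = 0.804 (adjusted p = 0.0181), both by permutation test. Without MPA 2 and vehicle 4, the arrays farthest from the median of Grb10, r was 0.812. It was 0.690 without vehicle 1, where the pair was no longer called. The first promoter listed for each, on chromosomes 11 and 10, is shown likewise:
Grb10 promoter, chr11:12037371-12037670, minus strand: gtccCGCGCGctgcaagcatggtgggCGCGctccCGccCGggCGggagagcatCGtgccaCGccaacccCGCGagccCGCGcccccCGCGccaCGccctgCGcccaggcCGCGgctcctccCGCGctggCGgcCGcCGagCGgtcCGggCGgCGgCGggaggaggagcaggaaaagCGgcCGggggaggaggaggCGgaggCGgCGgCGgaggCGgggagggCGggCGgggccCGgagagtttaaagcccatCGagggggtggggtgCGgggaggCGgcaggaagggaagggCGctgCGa
Plagl1 promoter, chr10:13090582-13090881, plus strand: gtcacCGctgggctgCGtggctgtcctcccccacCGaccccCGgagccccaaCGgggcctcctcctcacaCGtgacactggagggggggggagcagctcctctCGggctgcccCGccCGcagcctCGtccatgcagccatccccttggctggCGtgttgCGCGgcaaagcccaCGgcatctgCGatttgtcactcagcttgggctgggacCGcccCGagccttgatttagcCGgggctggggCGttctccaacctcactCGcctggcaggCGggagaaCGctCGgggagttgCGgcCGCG
This Grb10 promoter holds 45 CG dinucleotides, a count reached by 1.93% of all promoters, and that of Plagl1 26, reached by 16.9%. The second promoters of Grb10 and Meg3 hold 9 and 1. Pairs with Mest rested on vehicle 1. Peg3 and Mest had r = 0.914 and rho = 0.524 over all arrays and r = 0.316 without vehicle 1, and Meg3 and Mest had r = 0.886 and r = 0.274 without it; neither pair was called.

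**Figure D5:**
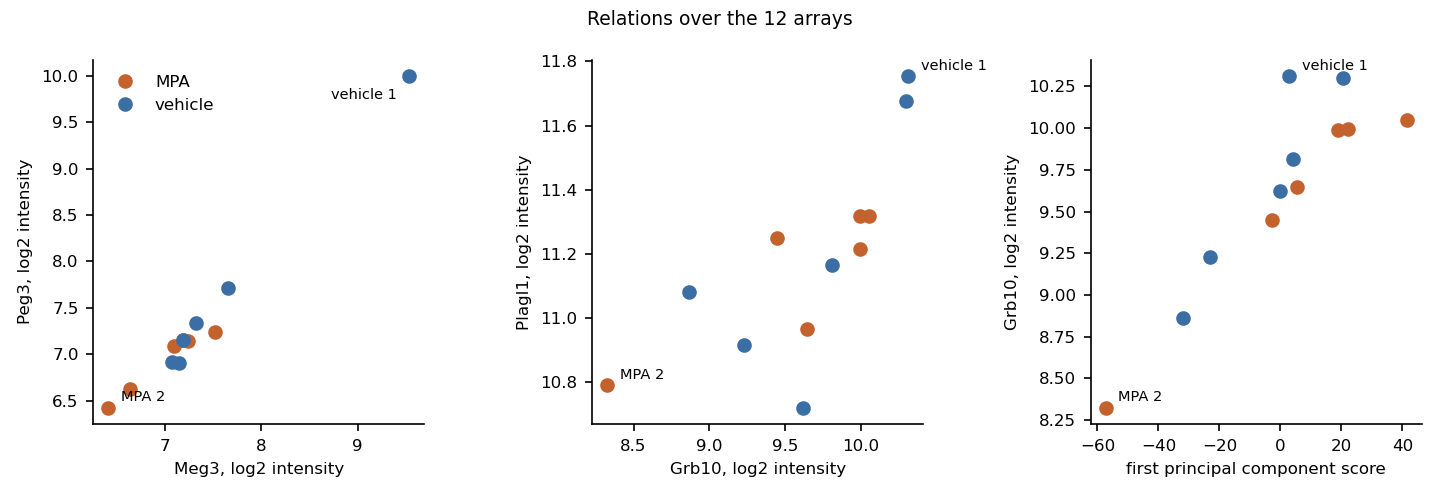
Each point is 1 array, MPA in orange and vehicle in blue. Meg3 against Peg3 (left), Grb10 against Plagl1 (centre) and the first principal component of all genes tested against Grb10 (right), in log2 intensity and component scores; vehicle 1 lies far out at upper right for Meg3 and Peg3 and near the other arrays on the component, while MPA 2 lies lowest for Grb10.

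The first principal component of all genes tested held 48.5% of the variance between arrays. Of 6 relations with it, that of Grb10 passed, with r = 0.903 (adjusted p = 7.2e-04) and rho = 0.825 (adjusted p = 0.0096) by permutation test over the 12 arrays. It was 0.956 without vehicle 1 and 0.870 without MPA 2 and MPA 5, the arrays farthest out on the component, to which Grb10 itself contributes as 1 gene. None of the other 5 was called over the 12 arrays. Meg3 had r of 0.33 with the component, and 0.68 without vehicle 1, and Peg3 had 0.25, and 0.61 without it. Peg10 had 0.59 and Plagl1 0.55, which were 0.61 and 0.64 without vehicle 1, and Mest had 0.03. The values without vehicle 1 were not tested. Vehicle 1 was near the middle of the component, at 2.89, where arrays ran from -57.3 in MPA 2 to 41.5 in MPA 5. Over 54 relations of the 6 genes with means of marker lists, 0 passed by both measures. Only lists with at least 3 genes tested entered. The lists of fetal liver and yolk sac, embryonic red cells, trophoblast and placenta, and decidua had fewer. So had those of cartilage, endothelium and nerve. None of these lists was related to the members, and the 0 does not cover them. Grb10 and simple epithelium genes had r = -0.747 (permutation, adjusted p = 0.0591) and rho = -0.832 (adjusted p = 0.0756), and r = -0.744 without vehicle 1. By r alone, Grb10 passed against fibroblast, smooth muscle and cervix and uterus genes. It had r = 0.858 against fibroblast genes (permutation, adjusted p = 0.0262; rho = 0.706, adjusted p = 0.227). That r was 0.442 without MPA 2 and vehicle 4. Leaving out MPA 2 and vehicle 4 likewise, Grb10 had r of 0.497 with cervix and uterus genes and 0.396 with smooth muscle genes. Without vehicle 1, Grb10 and fibroblast genes had r = 0.968, and Grb10 and the genes of cervix and uterus had r = 0.973, both of them called. These lists share Hoxa10 and Hoxa11, so the relations are not separate.

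As a description over the 12 arrays, with no test, the gene most like each member by Pearson's r was sought among all genes tested. Meg3 and Peg3 shared the same one, Tubb2b, with r of 0.950 and 0.952, and of 0.742 and 0.724 without vehicle 1. For Mest it was Zfp64, with 0.940, and 0.137 without vehicle 1. For Peg10 it was Rogdi, with 0.919 and 0.921 without vehicle 1. For Grb10 it was Klhl13, with 0.987 and 0.991, and for Plagl1 LOC102631979, with 0.933 and 0.925. The next 2 for each were Slc27a4 and Zfp64 for Meg3, Zfp64 and Cd99 for Peg3, Cd99 and Dock4 for Mest, Id3 and Wnk4 for Peg10, Myh10 and Evl for Grb10, and Macroh2a2 and Nsg1 for Plagl1. Without vehicle 1, those of Meg3 had 0.36 and 0.11, and those of Peg3 0.30 and 0.18. The likenesses of Peg10, Grb10 and Plagl1 moved by at most 0.05 when vehicle 1 was left out, and those of Mest were then 0.27 or less.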

How the data were processed

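RNA of 12 cervix samples was measured on Affymetrix arrays. The authors' deposited table gives 45101 probe sets as linear intensity, from 4.39 to 77974, made with GCRMA per the submitters' processing notes, with no version stated there. GCRMA corrects background by probe sequence, so weak probe sets collapse to a floor. The deposited instrument records gave the fluidics station. Of the probe sets, 34958 had 1 symbol, 932 several and 9211 were not listed; 34754 matched RefSeq (GRCm38.p6, for names). Log2 was taken with no pseudocount.

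Genes above 4 on at least 6 of 12 arrays were fitted with limma 3.58.1 (R 4.3.3), with no covariates, and called at a Benjamini-Hochberg p under 0.05. Exact permutation tests were run for the members that failed the filter, for 1448194_a_at and, as an alternative, for all genes fitted. The gene test and the pair test were tested on simulated data first. Named were all members, the 2 genes of smallest p in the lists of other imprinted genes and of the growth factor axis (with Igf2r, Igf1r and Dcn), and the 3 genes most like each member; other names were chosen after their values were seen. The members and lists were chosen with earlier results of these data known. Numbers shared by MPA and vehicle arrays did not pair them. The number of arrays limits the precision. Other tools were Python 3.11.15 and matplotlib 3.10.9.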

Additional observations from a re-analysis of the deposited data

Results flagged for a closer look

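For each group of 6 arrays and each of 30 genes or probe sets, the gap of the highest or lowest array to its neighbour was divided by the range of the group (Dixon's ratio). Of the 20 groups of the imprinted genes, 7 exceeded the critical value for 6 arrays, and 5 of these were for vehicle 1. Chance gives about 1 in 20 for a single group. Genes share the arrays, so these are not separate events. The members were also chosen with earlier results of these data known, so their count is not weighed against chance. Among the 7, vehicle 1 stood out in Dlk1 (0.943, within a range near the floor), Meg3 (0.764), Peg3 (0.739), Mest (0.772) and the probe set listed with H19 and Mir675 (0.703). MPA 2 stood out in Grb10 (0.652) and Cdkn1c (0.694), on the low side in both. All MPA values of Cdkn1c were below the minimum of 4. Igf2, Peg10 and Plagl1 had no such array; for Igf2, vehicle 2 lay between vehicle 1 and the others.

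Some of the other genes were named after their values in vehicle 1 were seen, so their count is not set against chance either. Over all 60 groups, 23 exceeded the value, 13 of them for vehicle 1. Vehicle 1 was the outlying array for Ttr (0.821), Myh3 (0.672), Col2a1 (0.912), Col9a3 (0.955), Dmp1 (0.787), Ibsp (0.901), Dcx (0.923) and Cryga (0.883). In the MPA group, MPA 2 was the outlying array for Myh3 (0.646), Tubb3 (0.720), Igf1r (0.635) and Ibsp (0.729) on the high side and for Dcn (0.812) on the low side. Col2a1 had MPA 5 (0.908) and Col9a3 MPA 6 (0.671) as the outlying array, in both cases within a range near the floor. The MPA range of Ibsp, 2.42 to 2.61, was near the floor too. Vehicle 4 was lowest for Stc2 (0.627).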

How the results depend on the processing

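No imprinted gene tested was called under any of 27 alternatives, which tested the same 6 genes except for 9 with no filter, 5 with the stricter filter (not Peg10) and 4 with the mean of all probe sets (not Meg3 and Peg3). All of the 5 and all of the 4 had a difference under 0, and elsewhere 4 to 6 of the 6. Without vehicle 1 and vehicle 2, the difference in means was -0.40 for Igf2, 0.25 for Cdkn1c and -1.11 for 1448194_a_at. Leaving out single arrays gave -0.76 to -0.27 for Meg3, -0.88 to -0.26 for Peg3, -0.55 to -0.17 for Peg10 and -0.55 to -0.12 for Mest, in each case but Peg10 nearest to 0 without vehicle 1. Grb10 turned to 0.019 with array weights, 0.081 without MPA 2 and MPA 5, and 0.19 without vehicle 1 and vehicle 2, and spanned -0.28 to 0.14 with single arrays left out. Plagl1 turned to 0.20 with fluidics station as a block or within the station that holds both groups, and to 0.17 without vehicle 1 and vehicle 2, and spanned -0.18 to 0.031; Mest turned to 0.0052 with the station as a block or within it. The cause was not tested. The count of all genes called, 1, fell to 0 with no filter and within the station. It was also 0 with RNA quality or the first principal component as a covariate, and with the exact permutation test. The same held without MPA 2 and MPA 5, and without vehicle 1 and vehicle 2. With single arrays left out, it was 0 to 1. The exact test cannot give a p under 0.00216, and only 30 of 8795 genes had groups that did not overlap. It could thus hardly call any gene after adjustment, and its 0 says little.

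A fit with replicate number as a block called 0 genes and none of the 6. The numbers share nothing but the number: deviations of equally numbered arrays correlated between -0.60 and 0.05, and 0 of 6 arrays correlated best with its own number. Pairs of genes called, 2, became 6 with no filter or with group means removed. They became 1 with the mean of all probe sets, with the first principal component removed, without MPA 2 and MPA 5, and without vehicle 1 and vehicle 2; they were 1 to 4 with single arrays left out. Meg3 and Peg3 were called in all 21 settings that tested both, and Grb10 and Plagl1 in 15 of 22. All 21 used the same probe set for Meg3 and the same for Peg3, so they do not cover the other probe sets. Relations with marker lists, 0, became 1 with group means removed and 3 without vehicle 1 and vehicle 2, and were 0 to 2 with single arrays left out. Leaving out vehicle 1 with vehicle 2, and all alternatives for the marker lists, were chosen after seeing the data. Igf2, Dlk1 and Cdkn1c lay near the floor on most arrays, which limits what their values can show.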
